A study of Mus musculus with 18 samples.

Results

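The genes described here are those of the PD-1 pathway and of other immune checkpoints, measured as RNA in mouse colon and spinal dorsal horn. They are the receptor gene Pdcd1, its ligand genes Cd274 and Pdcd1lg2, the phosphatase gene Ptpn11, and the receptor genes Ctla4, Lag3, Havcr2, Tigit, Btla and Icos. They were chosen by symbol, and all 10 were found in both count tables, out of 14987 genes for colon and 15193 for dorsal horn. The samples were 18 bulk RNA-seq libraries, with 3 groups of 3 per tissue. The nivolumab group had cancer and was given nivolumab, a therapeutic antibody raised against PD-1 of human origin. The cancer group had cancer and was given IgG, and the sham group was given IgG without cancer. All libraries were labelled wild type, and the series' title names bone cancer pain. The sources used here give no strain, age, tumour cells, dose or time of sampling, and do not tie libraries to separate animals. The p-values thus measure the spread between libraries, which can be technical in part.

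PD-1, the product of Pdcd1, is carried by activated T cells and holds them back when it binds PD-L1 (Cd274) or PD-L2 (Pdcd1lg2) on another cell. Its tail recruits the phosphatase SHP2, the product of Ptpn11, which acts against signalling from the T cell receptor and from CD28. Interferon-gamma is a well-known inducer of PD-L1. The colon wall holds many lymphocytes, while the healthy spinal cord holds few, and PD-1 has also been studied on sensory neurons.

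Ptpn11 RNA was lower in nivolumab than in sham dorsal horn, which was the one change among these genes that passed the threshold of edgeR's quasi-likelihood test in any of the 6 comparisons of groups within a tissue. DESeq2 called this change and 2 more in the dorsal horn, Ptpn11 in cancer over sham and Cd274 in nivolumab over sham. Over all genes tested, edgeR called 8.51% in nivolumab over sham dorsal horn. No member passed in the colon in either tool, and edgeR called 0.0% of all genes there. In the dorsal horn Pdcd1, Pdcd1lg2, Ctla4, Tigit and Icos lay close to the detection limit, so that their response there could not be measured at this depth. Between the tissues of sham mice, 7 of the 10 genes were higher in the colon, 1 was lower, and Lag3 and Havcr2 did not pass the test. Of all 14164 genes tested, 38.2% were higher in the colon and 37.0% lower, so most genes differed between these tissues.

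On the GRCm38 build, Cd274 (chromosome 19, 29367455 to 29388095, plus strand) and Pdcd1lg2 (chromosome 19, 29410919 to 29471161, plus strand) are neighbours, 22823 bases apart. Ctla4 (chromosome 1, 60887000 to 60915832, plus strand) and Icos (chromosome 1, 60977927 to 61000320, plus strand) form a second neighbouring pair, 62094 bases apart. Pdcd1 lies on the same chromosome (chromosome 1, 94038305 to 94052553, minus strand). Ptpn11 lies at chromosome 5, 121130533 to 121191397, minus strand. The others are Lag3 (chromosome 6, 124904361 to 124911705, minus strand), Havcr2 (chromosome 11, 46454935 to 46481255, plus strand), Tigit (chromosome 16, 43648867 to 43664146, minus strand) and Btla (chromosome 16, 45224315 to 45257670, plus strand). Antisense gene models overlap Cd274 and Pdcd1lg2, and other gene models or a pseudogene on the same strand overlap Ptpn11, Ctla4 and Icos. Without a stated strand setting, reads from such overlapping models are not separable.

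Start regions from RefSeq (GRCm38.p6), from 250 bases before to 50 bases after the annotated start, were matched for 8 of the 10 genes. The 3 printed here belong to the neighbouring PD-1 ligand genes and to Ptpn11, the gene whose change passed the test, and show how differently the starts of this pathway are built. Capitals mark the sequence pattern GAAANNGAA on either strand, which is a simplified binding pattern of interferon regulatory factors.
Cd274, chr19:29367188-29367487, plus strand: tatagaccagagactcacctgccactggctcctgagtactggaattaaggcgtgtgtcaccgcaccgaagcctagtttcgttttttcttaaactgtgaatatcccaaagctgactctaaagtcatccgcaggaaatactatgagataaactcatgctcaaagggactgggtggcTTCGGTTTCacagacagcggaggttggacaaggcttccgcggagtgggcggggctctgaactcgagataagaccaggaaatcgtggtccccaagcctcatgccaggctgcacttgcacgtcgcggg
Pdcd1lg2, chr19:29410669-29410968, plus strand: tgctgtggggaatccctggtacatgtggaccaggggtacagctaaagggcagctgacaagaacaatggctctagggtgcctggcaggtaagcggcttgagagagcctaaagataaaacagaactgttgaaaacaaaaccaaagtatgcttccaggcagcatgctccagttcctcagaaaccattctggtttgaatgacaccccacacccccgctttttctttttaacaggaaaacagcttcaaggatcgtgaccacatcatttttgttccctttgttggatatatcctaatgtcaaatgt
Ptpn11, chr5:121191348-121191647, minus strand: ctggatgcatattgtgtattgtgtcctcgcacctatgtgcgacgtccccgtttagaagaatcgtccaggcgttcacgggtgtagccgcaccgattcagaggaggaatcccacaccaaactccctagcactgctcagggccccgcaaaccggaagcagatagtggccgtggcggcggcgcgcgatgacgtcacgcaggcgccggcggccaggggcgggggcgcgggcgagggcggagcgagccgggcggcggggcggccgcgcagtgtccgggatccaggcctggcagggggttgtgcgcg
The pattern was found in the windows of Cd274 (TTCGGTTTC, positions -76 to -68 relative to the start), Ctla4 (TTCAGTTTC, -166 to -158) and Btla (GAAAGAGAA, -210 to -202), and in 8.56% of 32851 windows of this length in the table. Both strands were searched and no matches overlapped. These matches are letters in a window and not measured binding sites. The windows also differed in CpG dinucleotides, of which the median window had 7. Ptpn11 had 37, more than 94.4% of all windows, while Cd274 had 15, Pdcd1 had 5 and Pdcd1lg2 had 3.

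The total count of a library was 20896854 to 30803957 in colon and 21855085 to 29071908 in dorsal horn, so that 3 counts corresponded to 0.0950 to 0.149 and 0.103 to 0.132 CPM, the unit of counts scaled to library size used below. The tissues matched their labels: the mean level of colon epithelium markers was 9.69 to 10.86 log2 CPM in colon and -1.98 to 0.16 in dorsal horn, and that of spinal neuron markers was 6.80 to 7.26 in dorsal horn. Not all dorsal horn libraries were alike. Markers of dorsal root ganglion neurons, the sensory neurons that send fibres to the dorsal horn, had mean levels of 5.86 to 6.67 log2 CPM in the nivolumab libraries, 4.98 in cancer 3 and 4.78 in sham 3, against -0.12 to 0.25 in the other cancer and sham libraries. In the colon, cancer 3 had the lowest summed level of macrophage markers (98.0 CPM, against 219 to 387 in the other libraries), and nivolumab 2 had the lowest of T and NK cell markers (59.4 CPM, against 99.0 to 256). Gut muscle layer markers in the colon summed to 2344 to 3740 CPM in nivolumab and 5511 to 19892 CPM in cancer libraries. In sham colon they ran from 1070 to 17393.5 CPM. All nivolumab libraries thus lay below all cancer libraries and within the sham range. The median log2 fold change of these markers was -2.17 for nivolumab over cancer, and 0 of 6 tested passed. In bulk samples, fewer cells of a type and less RNA per cell cannot be told apart.

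In the colon the comparison of nivolumab with cancer asked whether nivolumab treatment was accompanied by altered RNA of PD-1 and its partners. Pdcd1 had 1.28, 0.739 and 1.17 CPM in the nivolumab libraries, 2.11, 1.65 and 0.795 CPM in the cancer libraries, and 0.855, 0.675 and 0.601 CPM in the sham libraries. Cancer 1 and 2 lay above every other library, while cancer 3 lay among the sham and nivolumab values. The fold changes were 0.70 for nivolumab over cancer (log2 -0.52, SE 0.51, adjusted p = 0.683) and 2.14 for cancer over sham (log2 1.10, SE 0.51, adjusted p = 0.487), both in edgeR's quasi-likelihood test with Benjamini-Hochberg adjustment over all genes. The raw counts were 16 to 49 in all 9 libraries.

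Cd274, the gene of PD-L1, had 32.1, 19.0 and 31.8 CPM in the nivolumab libraries, 31.5, 82.3 and 48.4 CPM in the cancer libraries, and 49.1, 49.2 and 28.4 CPM in the sham libraries. Nivolumab and cancer overlapped at their edges, since cancer 1 lay within the nivolumab range and cancer 2 was far above all other libraries. The log2 fold change of nivolumab over cancer was -0.97 (SE 0.38, adjusted p = 0.495). Pdcd1lg2, the gene of PD-L2, had 0.241, 0.638 and 1.07 CPM with nivolumab, 0.906, 0.827 and 0.348 CPM with cancer, and 1.58, 1.39 and 1.13 CPM in sham. All 6 libraries from mice with cancer lay below all sham libraries, with log2 fold changes over sham of -1.06 (SE 0.62, adjusted p = 0.847) for nivolumab and -0.97 (SE 0.63, adjusted p = 0.579) for cancer. Neither difference passed the test.

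Ptpn11, which is active in most cell types and not in T cells alone, had 107, 133 and 115 CPM in the nivolumab libraries, 144, 153 and 154 CPM in the cancer libraries, and 119, 148 and 120 CPM in the sham libraries. The nivolumab values all lay below the cancer values, and sham values fell between and among them. The log2 fold change of nivolumab over cancer was -0.34 (SE 0.14, adjusted p = 0.496). Nivolumab and cancer colon also differed in gut muscle layer markers, as given above. The part of these markers in the Ptpn11 and Cd274 values was not tested.

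Among the receptors, Ctla4, which competes with CD28 for CD80 and CD86, had 4.69, 1.34 and 6.23 CPM in the nivolumab libraries, 6.09, 7.09 and 0.845 CPM in the cancer libraries and 4.50, 3.45 and 2.90 CPM in the sham libraries. Cancer 3 and nivolumab 2 were the 2 lowest libraries, and the sham libraries lay between the extremes of the other groups. The same pair of libraries was lowest for Tigit, a receptor of nectins and of the poliovirus receptor, at 0.907 CPM in nivolumab 2 and 0.994 CPM in cancer 3, against 1.67 to 3.32 CPM in the other 7. The pair was also lowest for Havcr2 (TIM-3), at 1.78 CPM in nivolumab 2 and 0.895 CPM in cancer 3, and for Lag3, at 2.08 CPM in nivolumab 2 and 2.78 CPM in cancer 3. Summed T and NK cell markers were 59.4 CPM in nivolumab 2 and 99.0 CPM in cancer 3. The lowest sham library had 111 CPM, so cancer 3 was not far from it. The part of these markers in the members' values was not tested.

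Icos, a costimulatory receptor, ranged from 1.61 to 4.32 CPM in nivolumab, 2.29 to 4.57 CPM in cancer and 3.14 to 4.05 CPM in sham colon. Btla, an inhibitory receptor that B cells carry as well as T cells, did not have its lowest values in those libraries. It had 3.77, 8.46 and 12.2 CPM in the nivolumab libraries, 9.28, 6.27 and 4.13 CPM in the cancer libraries and 5.51, 7.62 and 2.54 CPM in the sham libraries. The summed B cell markers were 7.98, 91.3 and 81.6 CPM in the nivolumab libraries, 62.1, 19.5 and 48.5 CPM in the cancer libraries and 58.3, 100.3 and 23.9 CPM in the sham libraries, in the same order. The order of the libraries differed between the 2 measures. The markers' part in the Btla values was not tested.

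**Figure D1:**
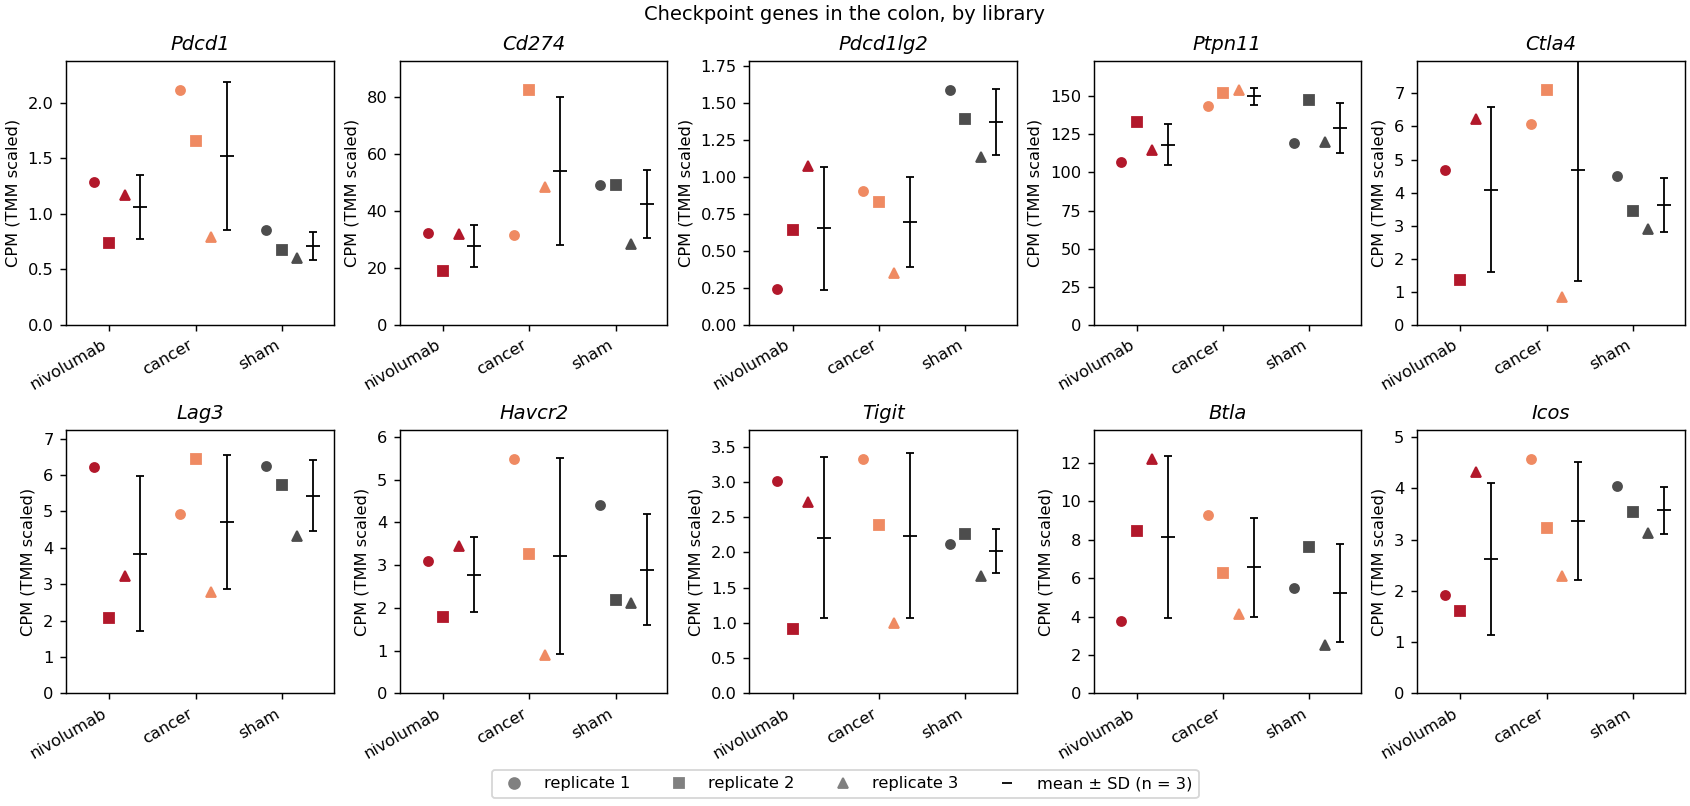
Level of each of the 10 checkpoint genes in the 9 colon libraries, in CPM scaled by TMM; points are libraries, and bars are group means ± SD of 3 libraries. Cancer 3 is the lowest library for Ctla4 and Havcr2, at 0.845 and 0.895 CPM, and the groups overlap for most genes.

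In nivolumab over cancer 0 of the 10 genes passed an adjusted p of 0.05, as did 0.0% of all 13445 genes tested in edgeR. At an unadjusted p under 0.05 there were 2 members, Cd274 and Ptpn11, and 9.84% of all genes. The 10 members had a median log2 fold change of -0.26 beside 0.03 over all genes. With 1 library left out, the sign of the fold change could turn for Pdcd1lg2, Ctla4, Havcr2, Tigit and Btla. In cancer over sham 0 members and 0.0% of all genes passed, and at an unadjusted p under 0.05 there were 0 members and 10.9% of all genes. In nivolumab over sham the counts were again 0 members and 0.0% of all genes, with 0 members and 6.45% of all genes at an unadjusted p under 0.05. DESeq2 called 181, 379 and 147 genes in these 3 comparisons, and 0 of the 10 members in each. With a biological coefficient of variation of 0.376, the colon libraries differed more within groups than those of the dorsal horn, where it was 0.170.

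In the dorsal horn 5 of the 10 genes had too few counts for the expression filter of the test. Pdcd1 had 9, 6 and 3 raw counts in the nivolumab libraries, 14, 8 and 0 in the cancer libraries, and 4, 7 and 0 in the sham libraries. The highest counts were 9, 14 and 7, and 2 of the 9 libraries had no count. Pdcd1lg2 had 2, 3 and 0 counts with nivolumab, 6, 3 and 4 with cancer, and 0, 2 and 2 in sham. The cancer libraries were the highest in CPM for this gene, at 0.210, 0.114 and 0.177, against 0.0865, 0.103 and 0 with nivolumab and 0, 0.0789 and 0.0758 in sham.

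Tigit had 0 counts in all 3 nivolumab libraries, 0, 6 and 2 in the cancer libraries and 0, 2 and 0 in the sham libraries. Ctla4 had 0, 3 and 0 counts with nivolumab, 0, 4 and 0 with cancer and 2, 0 and 0 in sham. Icos had 2, 0 and 0 counts with nivolumab, 0, 0 and 2 with cancer and 3, 2 and 0 in sham. For these genes most libraries had no count at all, and a count at or below 3 was taken as not detected at this depth. Counts of 1 were rarer than counts of 2 in all tables, so that small counts are not all single reads. The exact two-sided permutation test of CPM over 15 comparisons of these 5 genes gave p from 0.1 to 1.0. The smallest p that 3 against 3 libraries allow is 0.1, reached by Pdcd1lg2 for nivolumab over cancer and for cancer over sham. Without the filter, edgeR gave adjusted p of 0.217 or more for all 15.

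**Figure D2:**
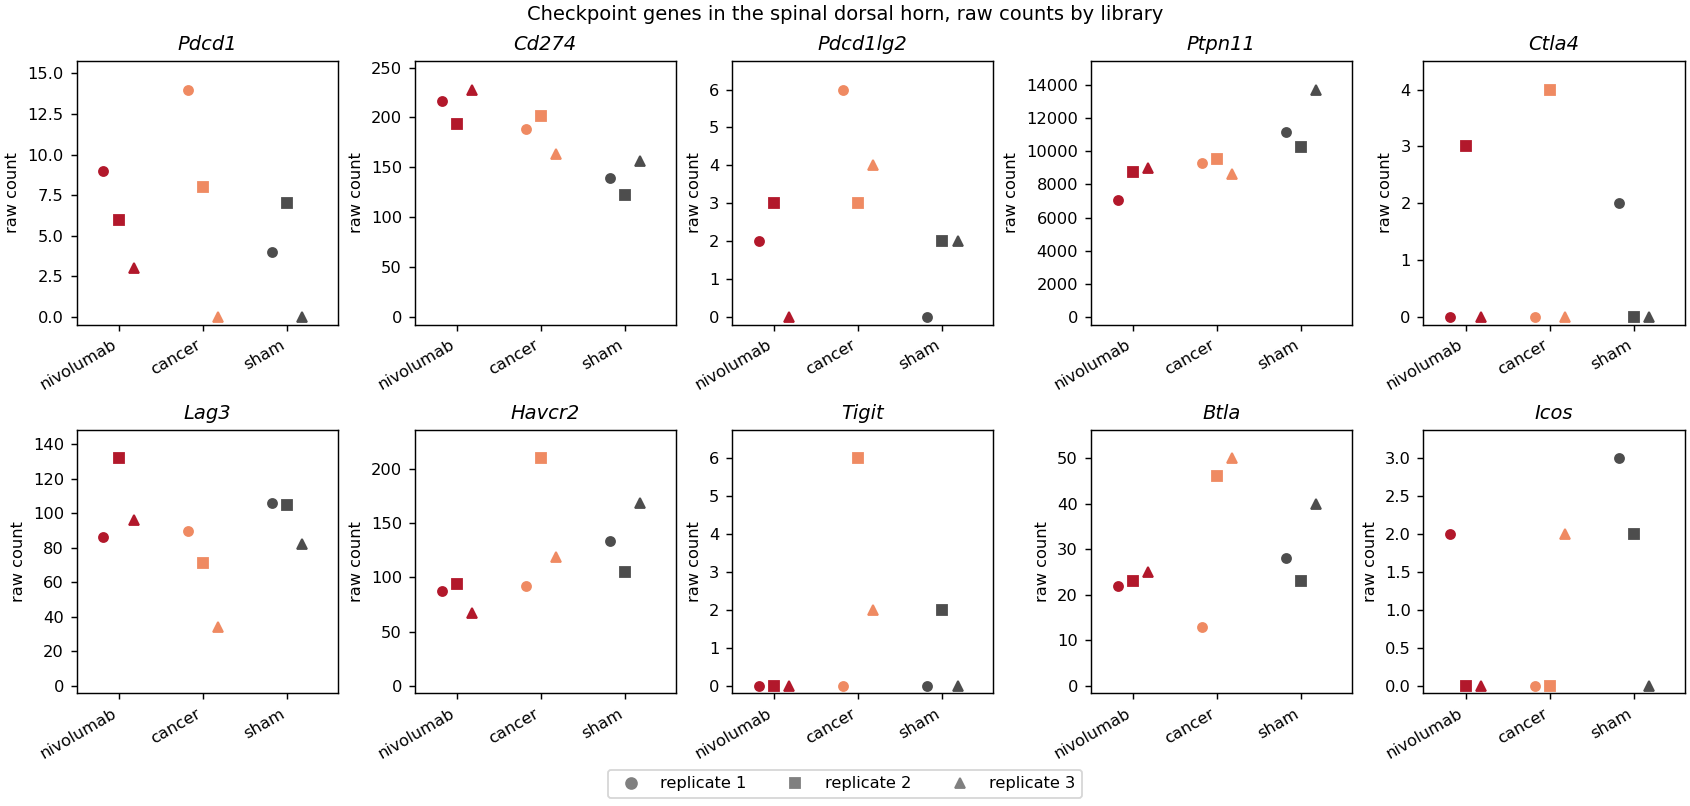
Raw counts of each of the 10 checkpoint genes in the 9 dorsal horn libraries; points are libraries and no scaling is applied. Pdcd1, Pdcd1lg2, Ctla4, Tigit and Icos have 0 to 14 counts, while Ptpn11 has far more, with its 3 sham libraries highest.

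Ptpn11 in the dorsal horn had 306, 300 and 334 CPM in the nivolumab libraries, 324, 363 and 382 CPM in the cancer libraries, and 460, 405 and 520 CPM in the sham libraries. All 6 libraries from mice with cancer lay below the 3 sham libraries, and the nivolumab and cancer ranges overlapped. Over sham, Ptpn11 fell in the nivolumab group by 0.56 on the log2 scale (SE 0.10, adjusted p = 0.0118 in edgeR), with means of 313 ± 17.8 CPM in nivolumab and 462 ± 57.7 CPM in sham (SD, n = 3 each). This made 1 of 5 tested members that passed, beside 8.51% of all 13609 genes tested and 3.84% that were lower. The call was lost without nivolumab 1 (adjusted p = 0.0720) and without sham 1 (adjusted p = 0.0513).

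In cancer over sham, Ptpn11 had a log2 fold change of -0.37 (SE 0.09, adjusted p = 0.146 in edgeR), with means of 356 ± 29.9 CPM in cancer and 462 ± 57.7 CPM in sham. It did not pass, while DESeq2 gave an adjusted p of 0.0215 and edgeR with the ganglion marker level as a covariate gave 0.0160. In nivolumab over cancer the log2 fold change was -0.19 (SE 0.09, adjusted p = 0.196), and -0.39 (adjusted p = 0.0160) with that covariate. The sham and nivolumab libraries also differed in ganglion markers, as given above, and in red blood cell markers, of which 5 of 5 tested fell in nivolumab over sham and 4 of 5 in cancer over sham. The summed red blood cell markers were 220 to 291 CPM in nivolumab, 109 to 221 CPM in cancer and 738 to 1274 CPM in sham libraries. With the ganglion level as a covariate Ptpn11 was lower in nivolumab than in sham by a log2 fold change of -0.76, and without sham 3 and cancer 3 by -0.44, and it passed in both. The ganglion levels of the nivolumab libraries did not overlap those of the other groups, so covariate and nivolumab group are hard to separate. Values of nivolumab with this covariate, here and below, thus rest on extrapolation along a straight line and decide little. The part of the red blood cell markers was not tested.

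Cd274 had 9.35, 6.62 and 8.44 CPM in nivolumab dorsal horn, 6.56, 7.65 and 7.20 CPM in cancer, and 5.71, 4.81 and 5.91 CPM in sham. Every library from mice with cancer was above every sham library, while nivolumab and cancer overlapped. The log2 fold change over sham was 0.57 for nivolumab (SE 0.16, adjusted p = 0.0620 in edgeR) and 0.38 for cancer (SE 0.16, adjusted p = 0.365). Neither passed, although nivolumab over sham did so in DESeq2 (adjusted p = 0.0299) and without nivolumab 2 (adjusted p = 0.0425). With the ganglion level as a covariate its adjusted p was 0.217.

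Lag3, an inhibitory receptor that binds MHC class II, had 3.72, 4.52 and 3.55 CPM in the nivolumab libraries, 3.14, 2.70 and 1.50 CPM in the cancer libraries, and 4.36, 4.14 and 3.11 CPM in the sham libraries. The nivolumab values lay above all cancer values and within reach of the sham values, and cancer 3 was the lowest library. The log2 fold change of nivolumab over cancer was 0.68 (SE 0.28, adjusted p = 0.119), and 1.39 (adjusted p = 0.00886) with the ganglion level as a covariate. Cancer over sham gave -0.65 (SE 0.28, adjusted p = 0.359).

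Havcr2, which microglia express as well as T cells, had 3.76, 3.22 and 2.48 CPM in the nivolumab libraries, 3.21, 7.99 and 5.26 CPM in the cancer libraries, and 5.51, 4.14 and 6.41 CPM in the sham libraries. The nivolumab values were below all sham values and overlapped with cancer through cancer 1. The log2 fold changes of nivolumab were -0.80 over cancer (SE 0.32, adjusted p = 0.115) and -0.76 over sham (SE 0.32, adjusted p = 0.171). Without cancer 1 the first of these was -1.07 (adjusted p = 0.0301). Summed microglia and macrophage markers ran from 341 to 411 CPM in nivolumab, 265 to 357 CPM in cancer and 313 to 448 CPM in sham, so that they overlapped between all groups.

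Btla had 0.952, 0.788 and 0.925 CPM in nivolumab, 0.454, 1.75 and 2.21 CPM in cancer, and 1.15, 0.907 and 1.52 CPM in sham dorsal horn. The cancer libraries held both the lowest and the highest values. Nivolumab over cancer gave a log2 fold change of -0.72 (SE 0.50, adjusted p = 0.340), which was -1.15 (adjusted p = 0.0462) without cancer 1.

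In all, 0 of 5 tested members passed in nivolumab over cancer, beside 17.2% of all 13609 genes, 8.63% being higher and 8.6% lower. At an unadjusted p under 0.05 there were 2 members, Lag3 and Havcr2, and 34.2% of all genes, and DESeq2 called 0 members and 3166 genes. In cancer over sham 0 of 5 members passed, beside 0.323% of all genes (0.0955% higher and 0.228% lower), and 3 members (Cd274, Ptpn11 and Lag3) and 13.1% of all genes had an unadjusted p under 0.05. DESeq2 called 1 member there, Ptpn11. In nivolumab over sham 26.1% of all genes had an unadjusted p under 0.05. The contrasts of nivolumab and of cancer share samples, so their values are not independent of each other.

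**Figure D3:**
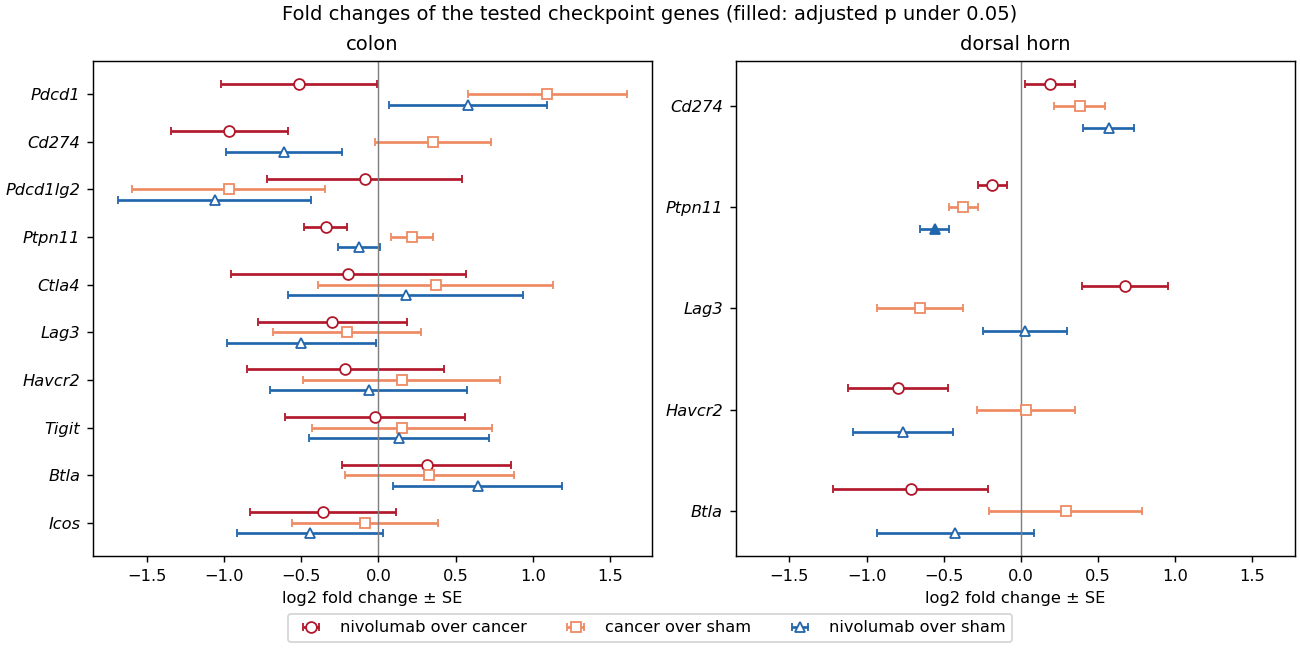
Log2 fold changes with their standard errors from edgeR for the 10 genes tested in the colon and the 5 tested in the dorsal horn; colours and shapes mark the comparison, and a filled symbol marks an adjusted p under 0.05. The filled symbol is Ptpn11 in dorsal horn, nivolumab over sham, at -0.56.

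Sham colon was set against sham dorsal horn to show where each gene is expressed without cancer or nivolumab. Levels here are CPM per kb of exon, so that genes can be compared. In sham colon Ptpn11 had 17.4 ± 1.85, Cd274 11.8 ± 3.40, Lag3 2.62 ± 0.506, Tigit 2.23 ± 0.339, Ctla4 1.58 ± 0.389, Btla 1.56 ± 0.743, Havcr2 1.09 ± 0.519, Icos 1.06 ± 0.157, Pdcd1lg2 0.709 ± 0.129 and Pdcd1 0.374 ± 0.0775 CPM per kb (SD, n = 3). Neighbours in this order differed by less than the larger of their SDs for Lag3 and Tigit, Ctla4 and Btla, Btla and Havcr2, and Havcr2 and Icos, and by more for the other pairs. In sham dorsal horn Ptpn11 had 60.3 ± 7.51, Havcr2 1.93 ± 0.410, Lag3 1.80 ± 0.312, Cd274 1.48 ± 0.159 and Btla 0.343 ± 0.0881 CPM per kb. Havcr2 and Lag3 differed by less than their SDs there, and the other neighbours by more.

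In the fit of all 18 libraries over 14164 genes, 8 of 10 members differed between sham colon and sham dorsal horn, beside 75.2% of all genes (38.2% higher in colon and 37.0% lower, and 76.7% at an unadjusted p under 0.05). Cd274 was higher in colon by a log2 fold change of 3.00 (SE 0.35, adjusted p = 2.03e-06 in edgeR) and Btla by 2.17 (SE 0.56, adjusted p = 0.00275). Ptpn11 was lower in colon, at -1.79 (SE 0.12, adjusted p = 6.34e-09). Lag3 (0.54, SE 0.41, adjusted p = 0.245) and Havcr2 (-0.82, SE 0.53, adjusted p = 0.170) did not pass.

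For the 5 genes near the detection limit in dorsal horn the level is given as a ratio of CPM summed over the sham libraries, colon over dorsal horn, with a 95% interval for counting error. It was 144 for Ctla4 (39.5 to 1193), 79.2 for Tigit (21.6 to 659), 56.6 for Icos (24.0 to 176), 27.1 for Pdcd1lg2 (10.3 to 101) and 5.13 for Pdcd1 (2.68 to 10.8). These intervals take each count as an independent event. Since small counts are not all single reads, the intervals can be too narrow. The adjusted p in edgeR was 0.000217 for Ctla4, 0.000212 for Tigit, 3.53e-05 for Icos, 0.000117 for Pdcd1lg2 and 0.0333 for Pdcd1. Pdcd1 thus had the smallest ratio of these 5, and its call was lost without colon sham 1 (adjusted p = 0.0795), dorsal horn sham 1 (0.0687) or dorsal horn sham 3 (0.0975). Tissue and count table cannot be told apart in this comparison. The T and NK cell markers went the same way, with summed levels of 111 to 218 CPM in sham colon and 5.68 to 6.37 CPM in sham dorsal horn, where 13 to 14 of 24 markers were at 0.

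**Figure D4:**
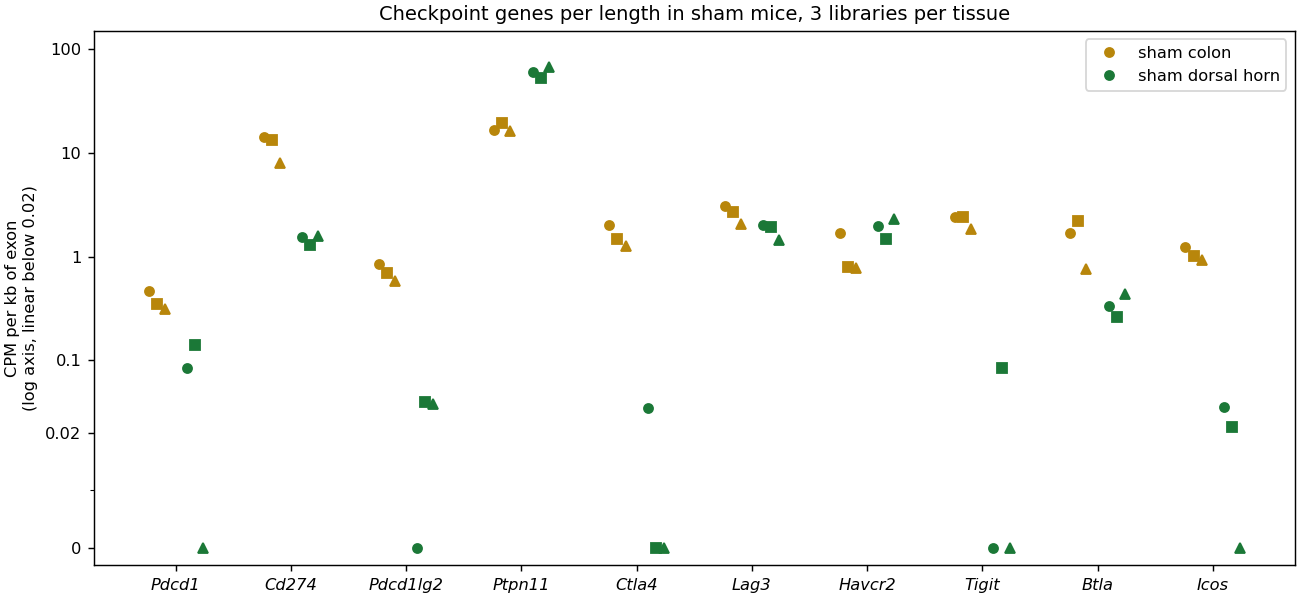
Level of each gene in CPM per kb of exon in the 3 sham colon and 3 sham dorsal horn libraries, on a log axis that is linear below 0.02; each point is a library. Ptpn11 is higher in dorsal horn, Havcr2 overlaps between the tissues, Lag3 lies slightly higher in colon, and the others are higher in colon.

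Whether responses differed between the tissues was tested as an interaction. For nivolumab over cancer 0 of the 10 genes passed, beside 0.127% of all genes (0.0282% with a higher and 0.0988% with a lower fold change in colon). For cancer over sham it was 0 of 10 beside 0.155% (0.0847% higher and 0.0706% lower), and for nivolumab over sham 0 of 10 beside 0.184% (0.0494% higher and 0.134% lower). In each there were 2 members at an unadjusted p under 0.05, beside 16.4%, 10.9% and 12.7% of all genes. Pdcd1, Pdcd1lg2, Ctla4, Tigit and Icos lay near the detection limit in dorsal horn. Their SE for nivolumab over cancer was 1.06 to 1.89, so their tests could hardly show a difference. Of the genes with counts in both tissues, Cd274 had a difference of -1.23 in log2 fold change, colon minus dorsal horn, for nivolumab over cancer (SE 0.46, adjusted p = 0.212), where the colon had -0.97 and the dorsal horn 0.19. Ptpn11 had a difference of 0.63 for cancer over sham (SE 0.17, adjusted p = 0.160), where the colon had 0.22 and the dorsal horn -0.37. Neither difference passed the test.

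The partners of the other checkpoint receptors were followed through a list of 17 genes. In the dorsal horn 4 of 13 tested were higher in nivolumab over cancer, 0 were lower and 9 did not pass, beside 8.63% of all genes higher. Rgmb, a PD-L2 binding protein of the repulsive guidance family that is also expressed by sensory neurons, had 154, 123 and 157 CPM in nivolumab, 87.2, 87.7 and 89.4 CPM in cancer, and 84.7, 84.7 and 94.5 CPM in sham libraries. Every nivolumab library stood above all others, and Rgmb rose 1.64-fold over cancer (log2 0.72, SE 0.09, adjusted p = 0.00216) and 1.64-fold over sham (adjusted p = 0.00544). Both calls held in all 17 alternatives.

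Lgals9, the gene of galectin-9 that binds TIM-3, had 39.0, 26.5 and 41.8 CPM in nivolumab, 16.1, 11.99 and 18.5 CPM in cancer and 11.0, 11.6 and 17.0 CPM in sham. It rose 2.30-fold over cancer (log2 1.20, SE 0.24, adjusted p = 0.0115) and 2.71-fold over sham (adjusted p = 0.0122). Nectin2, a ligand of TIGIT, rose 1.88-fold over cancer (adjusted p = 0.0339), and Nectin3, another nectin that TIGIT can bind, rose 1.50-fold over cancer (adjusted p = 0.0284). Over sham, 3 of 13 rose with nivolumab, namely Rgmb, Lgals9 and Nectin2 (1.97-fold, adjusted p = 0.0413), beside 4.67% of all genes higher. The nivolumab libraries were also the highest in ganglion markers. With that level as a covariate the adjusted p over cancer was 0.0542 for Lgals9 and 0.308 for Nectin2. Without nivolumab 1 it was 0.0551 for Lgals9, 0.115 for Nectin2 and 0.0662 for Nectin3. The Nectin2 call over cancer was also lost without nivolumab 3 (0.119), cancer 1 (0.0809) or cancer 2 (0.111), and that of Nectin3 without nivolumab 2 (0.0610), nivolumab 3 (0.0910) or cancer 3 (0.0610). Over sham, Lgals9 was lost without nivolumab 1 (0.0664) or sham 1 (0.0565). Nectin2 over sham was lost with the ganglion covariate (0.269) and without sham 1 (0.141), sham 2 (0.113), nivolumab 1 (0.149), nivolumab 3 (0.143) or cancer 1 (0.0549). In cancer over sham 0 of 13 passed, beside 0.323% of all genes.

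Of the genes on the interferon-gamma route to PD-L1, 2 of 11 tested in the dorsal horn rose and 1 fell in nivolumab over cancer, beside 8.63% of all genes higher and 8.6% lower. Stat3, a transcription factor that responds to interleukin-6, rose 1.46-fold over cancer (adjusted p = 0.0208) and 1.47-fold over sham (adjusted p = 0.0303), and lost both calls with the ganglion covariate (adjusted p = 0.117 over cancer and 0.155 over sham). Cmtm4, a regulator of PD-L1 protein stability, fell in nivolumab over cancer by 0.38 on the log2 scale (SE 0.08, adjusted p = 0.0149). Leaving out 1 library ended the Cmtm4 call for nivolumab 1 (0.0610). The Stat3 call over cancer was lost without nivolumab 1 (0.0736), nivolumab 3 (0.0814), cancer 1 (0.0563) or cancer 2 (0.0748), and that over sham without nivolumab 1 (0.109), nivolumab 3 (0.109), sham 1 (0.101) or sham 2 (0.0864). In nivolumab over sham 2 of 11 rose and 0 fell, beside 4.67% of all genes higher. In cancer over sham 0 of 11 passed, beside 0.323% of all genes.

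Of 16 tested genes of T cell receptor signalling, 3 rose and 0 fell in nivolumab over cancer in the dorsal horn, beside 8.63% of all genes higher, and 3 rose and 0 fell over sham, beside 4.67% higher. Prkcq, protein kinase C theta, had 68.6, 58.5 and 61.7 CPM in nivolumab, 34.8, 31.8 and 27.2 CPM in cancer and 35.3, 44.7 and 40.7 CPM in sham. It rose 2.01-fold over cancer (log2 1.01, SE 0.11, adjusted p = 0.00169) and 1.57-fold over sham (adjusted p = 0.0129). The call over cancer held in all 17 alternatives, and that over sham was lost without sham 1 (0.0559) or nivolumab 1 (0.0690). Pik3cd, a catalytic subunit of PI3 kinase, rose 1.34-fold over cancer (adjusted p = 0.0431). With the ganglion covariate its adjusted p was 0.385. The Pik3cd call was lost without any 1 of the nivolumab libraries, cancer 1, cancer 2 or sham 1 (0.0654 to 0.147), and held in 9 of the 17 alternatives. Lck, the kinase that starts T cell receptor signalling, rose 2.30-fold over sham (adjusted p = 0.0441). It had 1.49 ± 0.203 CPM in nivolumab and 0.648 ± 0.126 CPM in sham. The Lck call was lost without any 1 library other than cancer 3 (0.0522 to 0.150). It held in only 5 of the 17 alternatives, with adjusted p up to 0.171. T cell markers were sparse in these libraries: 7 to 12 of 24 T and NK cell markers were at 0 in nivolumab, 3 to 11 in cancer and 13 to 14 in sham libraries. In cancer over sham 0 of 16 passed, beside 0.323% of all genes.

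**Figure D5:**
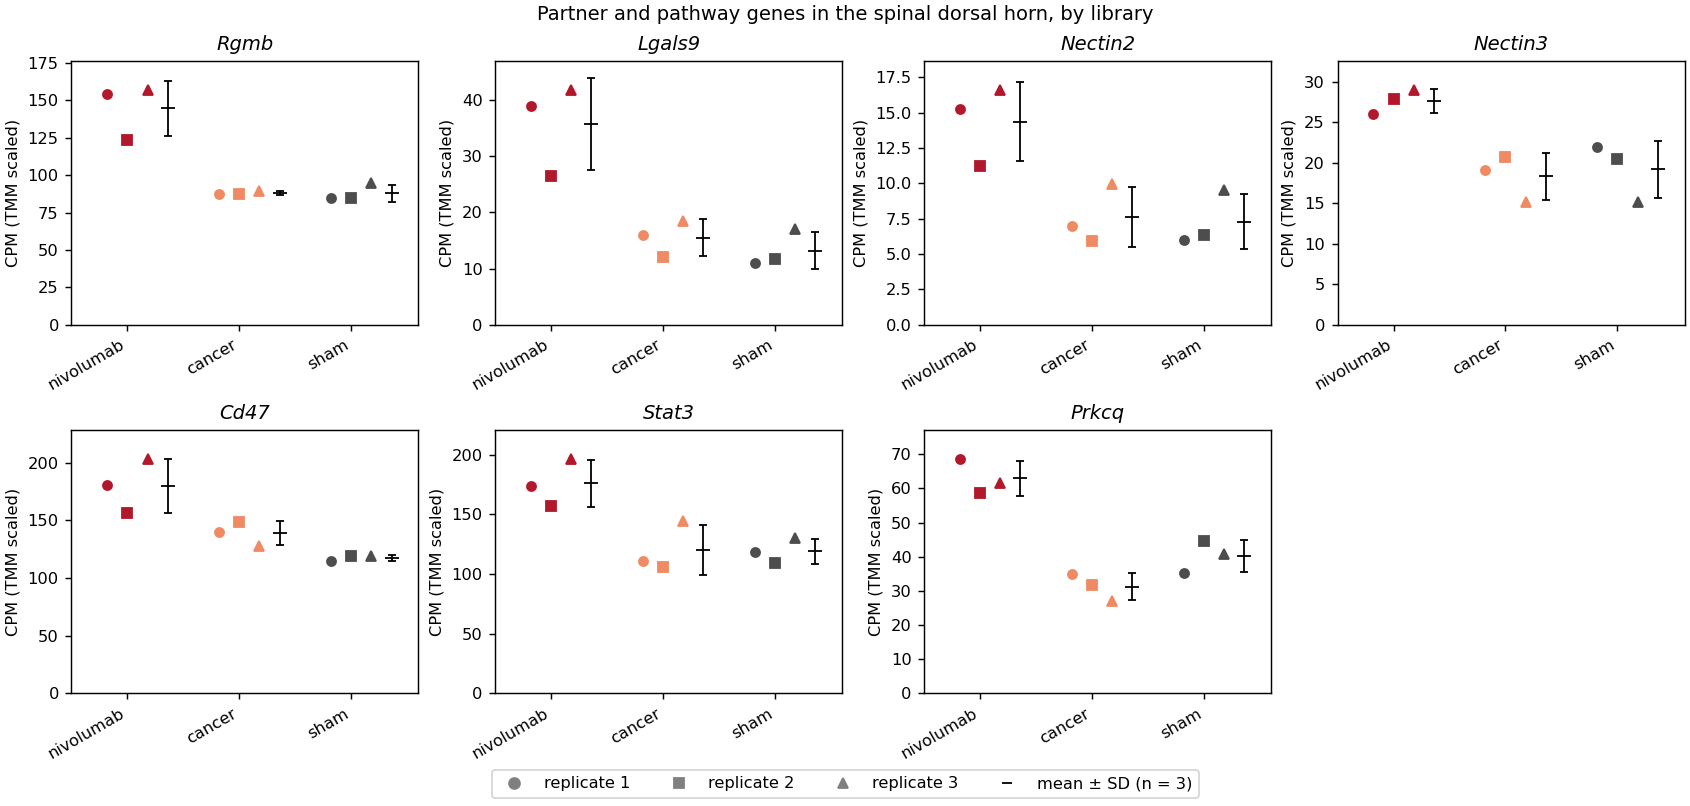
Levels in CPM scaled by TMM of 7 partner and pathway genes that passed the test in nivolumab over cancer, in the 9 dorsal horn libraries; points are libraries and bars are means ± SD of 3. The nivolumab libraries lie above all cancer and sham libraries for each gene, for example at 123 CPM or more against 94.5 CPM or less for Rgmb.

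Among 10 tested further inhibitory ligands and receptors, 1 rose and 1 fell in nivolumab over cancer in the dorsal horn, which is close to the shares over all genes of 8.63% higher and 8.6% lower. Cd47, a signal that restrains phagocytes, had 181, 156 and 203 CPM in nivolumab, 140, 148 and 128 CPM in cancer and 115, 119 and 119 CPM in sham. It rose 1.53-fold over sham (log2 0.61, SE 0.09, adjusted p = 0.00819), a call that held in all 17 alternatives, and 1.30-fold over cancer (adjusted p = 0.0229). Sirpa, the receptor of CD47 on phagocytes and neurons, fell by 0.26 on the log2 scale in nivolumab over cancer (SE 0.08, adjusted p = 0.0461), and its adjusted p was 0.441 with the ganglion covariate. The Sirpa call was lost without nivolumab 1, nivolumab 3, cancer 1, cancer 2 or sham 1 (0.0664 to 0.146), and held in 10 of the 17 alternatives. The Cd47 call over cancer was lost without nivolumab 1 (0.0793), nivolumab 3 (0.0814) or cancer 3 (0.0627), and held in 13 of the 17 alternatives. In nivolumab over sham 1 of 10 rose and 0 fell, beside 4.67% of all genes higher and 3.84% lower. In cancer over sham 0 of 10 passed, beside 0.323% of all genes.

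Of the immune cell markers in the dorsal horn, 1 of 7 tested T and NK cell markers fell in nivolumab over cancer, Il7r, the interleukin-7 receptor (0.611 ± 0.0846 CPM in nivolumab and 2.11 ± 1.22 CPM in cancer, adjusted p = 0.0300). This call was lost with the ganglion covariate (0.121) and without any 1 nivolumab library, cancer 2 or cancer 3 (0.0563 to 0.111). Of 14 microglia and macrophage markers 1 rose, and of 8 dendritic cell markers 1 fell, Flt3 (log2 fold change -0.29, adjusted p = 0.0161), a call lost without nivolumab 1 (0.0737). Of 6 B cell markers 0 passed. Over all genes 8.63% were higher and 8.6% lower in this comparison, so that these counts of 1 gene a list are near the background. Lck was the 1 immune marker that passed in nivolumab over sham, where 4.67% of all genes were higher and 3.84% lower. In cancer over sham 0 immune markers passed, beside 0.323% of all genes. Of the markers of other tissues, 2 of 14 for ganglion neurons and 3 of 8 for Schwann cells rose in nivolumab over cancer. Of those for spinal neurons 5 of 10 fell, and of those for colon epithelium 1 of 6. For skeletal muscle 0 of 8 passed, for the gut muscle layer 0 of 5 and for red blood cells 0 of 5. Summed skeletal muscle markers were still 78.2 to 920 CPM in nivolumab, 4.28 to 260 CPM in cancer and 3.55 to 141 CPM in sham. Their median log2 fold change was 2.51 over cancer and 3.25 over sham. Summed Schwann cell markers were 1151 to 1419 CPM in nivolumab, 222 to 637 CPM in cancer and 361 to 997 CPM in sham. The part of these markers in the named genes' values was not tested. Over sham, nivolumab libraries had 1 of 14 for ganglion neurons and 1 of 8 for Schwann cells that rose, and 3 of 10 for spinal neurons that fell. Of the 15 lists beside the members, 0 had a gene that passed in the colon.

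In the colon 0 of 16 partners, 0 of 12 further inhibitory genes, 0 of 19 genes of T cell receptor signalling and 0 of 12 genes on the interferon-gamma route passed in any of the 3 comparisons, beside 0.0% of all genes. Stat3 had 341 ± 124 CPM in cancer and 184 ± 19.2 CPM in sham colon (log2 fold change 0.89, SE 0.25, adjusted p = 0.288), and DESeq2 called it (adjusted p = 0.0356). Pvr, the poliovirus receptor that TIGIT binds, had 43.9 ± 11.9 CPM in cancer and 29.9 ± 1.45 CPM in sham colon (log2 fold change 0.55, SE 0.20, adjusted p = 0.367). Cd276, the gene of B7-H3, had 15.1 ± 2.89 CPM in nivolumab, 8.75 ± 1.42 CPM in cancer and 15.8 ± 3.098 CPM in sham colon. Its log2 fold change was 0.79 for nivolumab over cancer (SE 0.25, adjusted p = 0.465) and -0.86 for cancer over sham (SE 0.26, adjusted p = 0.310), of which DESeq2 called the one for cancer over sham (adjusted p = 0.0470).

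For each gene the most similar genes were those with the highest Pearson correlation of log2 CPM over the 9 libraries of a tissue, which share groups, depth and tissue makeup. In the colon the closest gene to Ctla4 was Sla (r = 0.98), to Icos it was Itgal (r = 0.96), to Havcr2 it was Runx3 (r = 0.96), to Tigit it was Def6 (r = 0.97) and to Pdcd1lg2 it was Irf4 (r = 0.96). For Cd274 it was Gpr155 (r = 0.98), for Ptpn11 Bmpr1a (r = 0.95), for Btla Haao (r = 0.96), for Lag3 Lpl (r = 0.95) and for Pdcd1 Mbip (r = 0.95). In the dorsal horn the genes closest to Lag3 were Nkd1 (r = 0.99), Emc7 (r = 0.98) and Opalin (r = 0.98), a gene of oligodendrocytes. The closest to Ptpn11 was Naca (r = 0.98), to Cd274 Htr1f (r = 0.95), to Havcr2 Tob2 (r = 0.96) and to Btla Fpr1 (r = 0.97). These are descriptions over 9 libraries, each the highest among 13429 genes in colon or 13598 in dorsal horn.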

How the data were processed

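RNA was measured in 9 colon and 9 dorsal horn libraries. Per the labels' protocols, TRIzol served for extraction of total RNA and SmartScribe for reverse transcription. The submitters' processing notes list HISAT2, StringTie, Trimmomatic, FastQC 0.11.5 and GRCm38. The counting tool and strand setting are not stated in any source used. The authors deposited whole-number gene counts, unnormalised, in 1 table per tissue. Single counts were unusually rare: the median library held 33 genes with 1 count and 189 with 2 in colon, and 37 and 175 in dorsal horn.

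The members and all lists were chosen with earlier results of these data known. From the counts, edgeR 4.0.16 (R 4.3.3) fitted the 9 libraries of a tissue with TMM scaling, its default expression filter and robust quasi-likelihood tests. Tests were two-sided, with Benjamini-Hochberg adjustment over all genes tested and a threshold of 0.05. The filter kept 13445 colon genes, with all 10 members, and 13609 dorsal horn genes, with 5 members. Members below it were compared by exact permutation tests. A joint fit of 18 libraries tested the difference between tissues. CPM used TMM-scaled totals, log2 CPM a prior count of 2, and levels per length the summed exons of GENCODE M21. Intervals and the floor of 3 counts cover counting error only, because PCR reads lacking molecular identifiers do not each stand for a molecule.

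Named genes outside the members were, per pathway list and comparison, up to 4 with the smallest adjusted p among those that passed, or otherwise 1 with the smallest p, and, of the immune cell lists, those that passed; markers of other tissues are given by level and count. A few genes this selects are left unnamed and stand only in list counts. No 2 libraries of a group agreed within sampling noise, with a chi-square per degree of freedom of at least 73.1 in colon and 9.85 in dorsal horn. The rule that every pair of same-numbered libraries deviate together (correlation over 0.1) was met by nivolumab with cancer in dorsal horn (0.190 to 0.276). No other 2 groups met it. Libraries of unlike number in different groups had -0.504 to 0.469 there, so these values do not establish a pairing. The main tests used none, and the labels do not say what a number marks. Alternatives were other normalisation factors, no filter, DESeq2 1.42.0, a fit of 2 groups, the replicate number as a block, the ganglion marker level as a covariate, and leaving out libraries. The steps were tested on simulated data.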

Additional observations from a re-analysis of the deposited data

How the results depend on the processing

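Low counts limit 5 of the 10 genes in the dorsal horn, and the spread between libraries limits the colon. No member passed in the colon under any alternative run, including DESeq2, the replicate block and each left-out library. Over all colon genes DESeq2 called 181 in nivolumab over cancer, 379 in cancer over sham and 147 in nivolumab over sham, against 0 in edgeR; the replicate block called 1 in cancer over sham, and the fit of 2 groups called 7 in nivolumab over sham. With 1 library left out the counts were 0 to 2, 0 to 9 (both without cancer 3) and 0 to 3 (without cancer 2).

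In the dorsal horn the ganglion covariate gave 2 members past the threshold in nivolumab over cancer (Lag3 and Ptpn11), and leaving out 1 library 0 to 2 (Havcr2 and Btla without cancer 1). That covariate is hard to separate from the nivolumab group, whose ganglion levels did not overlap the others. In cancer over sham Ptpn11 was the 1 member called by DESeq2 and the 1 called with the ganglion covariate. In nivolumab over sham DESeq2 called 2 members (Ptpn11 and Cd274), and leaving out 1 library gave 0 to 2, with 0 without nivolumab 1 or sham 1 and 2 without nivolumab 2. Over all genes, the count of 44 in cancer over sham became 366 in DESeq2, 2 in the fit of 2 groups, 115 with the replicate block, 384 with the ganglion covariate, 91 without sham 3 and cancer 3, and 2 to 125 with 1 library left out (2 without nivolumab 1 or sham 1, 125 without cancer 1, 78 without sham 3, and 9 to 28 without nivolumab 2, nivolumab 3, cancer 2 or sham 2). The count of 1158 in nivolumab over sham became 1936 in DESeq2, 2100 with the ganglion covariate and 95 to 1237 with 1 library left out (95 without nivolumab 1, 228 without sham 1, 310 without nivolumab 3, 652 without sham 2). The count of 2345 in nivolumab over cancer became 771 to 2717 with 1 library left out (771 without nivolumab 1, 964 without nivolumab 3, 1144 without cancer 2).

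The cause of these shifts was not tested. No call was reversed, but some fold changes that had not passed changed sign. With the replicate block the log2 fold change was 0.018 for Tigit (colon, nivolumab over cancer), 0.070 for Havcr2 (colon, nivolumab over sham) and -0.0070 for Havcr2 (dorsal horn, cancer over sham); the difference between tissues in cancer over sham was -0.058 for Cd274 and -0.018 for Havcr2. Same-numbered libraries had correlated deviations of -0.442 to 0.458 in colon and -0.0779 to 0.527 in dorsal horn. Only nivolumab and cancer in dorsal horn met the rule for a pairing, with all 3 pairs positive (0.190 to 0.276). Libraries of unlike number in different groups reached 0.469 in that tissue, so no pairing is established. In that comparison the block changed no call of a gene named in the text. Without sham 3 and cancer 3, Lag3 in dorsal horn had -0.088 in nivolumab over sham. With 1 library left out, log2 fold changes of nivolumab over cancer in colon ran from -0.68 to 0.24 for Pdcd1lg2, -0.69 to 0.21 for Ctla4, -0.65 to 0.38 for Havcr2, -0.37 to 0.35 for Tigit and -0.13 to 0.62 for Btla. For cancer over sham in colon they ran from -0.062 to 0.65 for Cd274, -0.046 to 0.86 for Ctla4, -0.48 to 0.063 for Lag3, -0.46 to 0.59 for Havcr2, -0.23 to 0.50 for Tigit and -0.36 to 0.12 for Icos. For nivolumab over sham in colon they ran from -0.28 to 0.58 for Ctla4, -0.27 to 0.37 for Havcr2 and -0.21 to 0.49 for Tigit. In dorsal horn they ran from -0.33 to 0.32 for Havcr2 and -0.11 to 0.74 for Btla in cancer over sham, and from -0.11 to 0.12 for Lag3 in nivolumab over sham. The difference between tissues in cancer over sham ran from -0.47 to 0.32 for Cd274, -0.45 to 0.61 for Havcr2 and -0.39 to 0.48 for Btla.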
